A study of Rattus norvegicus with 4 samples.

Results

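The genes described are the ligands and receptors of the 4 classical families of axon guidance proteins, the semaphorins with their neuropilin and plexin receptors, the Slits with the Robo receptors, the netrins with Dcc and the Unc5 receptors, and the ephrins with the Eph receptors. They were chosen by gene symbol, by a rule that uses no measured value but was written with earlier results of these data known. Of the 25810 genes in the count files, 58 carried such a symbol, 31 of ligands and 27 of receptors, and 47 of the 58 had at least 20 reads over the 4 libraries. The study compared by RNA-Seq 2 clones of PC12, a rat line from a pheochromocytoma, which is a tumour of the chromaffin cells of the adrenal medulla. The clone wtPC12 is labelled as having low levels of REST, and hrPC12, earlier named PC12-27, as having high levels. REST is a transcription repressor that keeps many neuronal genes silent outside neurons. Each group held 2 libraries of 1 clone, and neither clone was treated, so a difference of REST level cannot be told apart from any other difference between the clones. The labels do not say that the 2 libraries of a clone came from separate cultures. The p-values therefore measure the spread between these libraries, which may be technical.

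A growing axon finds its way by reading proteins on other cells or in the matrix around it. Secreted cues, such as class 3 semaphorins, Slits and netrins, act at a distance from the cell that makes them, while ephrins and most other semaphorins are held in the membrane and act on contact. A receptor set can turn the same cue into attraction or repulsion, as netrin-1 attracts through Dcc and repels through Unc5 receptors. Many of these genes are also used outside the nervous system, in blood vessels, epithelia and the migrating neural crest from which chromaffin cells come.

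Values are given as normalized read counts, that is reads divided by the library's size relative to the mean of the 4, in the order wtPC12 replicate 1, wtPC12 replicate 2, hrPC12 replicate 1 and hrPC12 replicate 2 unless stated. Such counts are not divided by transcript length, so levels were compared between clones and not between genes. The log2 FC is hrPC12 over wtPC12, given with its standard error (SE), and the adjusted p comes from the quasi-likelihood test of edgeR with Benjamini-Hochberg adjustment over 13726 tested genes. A gene is said to have risen or fallen where its adjusted p was under 0.01 and its log2 FC was past 2 in either direction. The libraries held 20975027, 21999191, 27246502 and 21634943 reads on genes, and 3 reads, taken as the limit of detection, correspond to 3.49, 3.09, 2.54 and 3.04 normalized counts. Rest itself stood at 43.0, 132, 964 and 915, above wtPC12 in both hrPC12 libraries (log2 FC 3.42, SE 0.57, edgeR adjusted p = 0.0115). The order of the clones is that of their labels, and with DESeq2 the adjusted p was 1.94e-10. The wtPC12 libraries differed for Rest, and leaving out replicate 2 or replicate 1 of that clone gave a log2 FC of 4.44 or 2.80.

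The guidance genes of hrPC12 differed from those of wtPC12 by large amounts and in both directions. Of the 47 genes with enough reads, 45 passed the filter on low values (reads in each clone and, over the libraries, 5 normalized counts or more on average), and of these 11 fell and 4 rose. The genes that fell are the receptors Unc5a, Unc5c, Nrp2, Robo1, Ephb2 and Epha10 and the ligands Ntn1, Sema3g, Sema5a, Sema6d and Efnb3. Those that rose are the receptor Epha2 and the ligands Sema3c, Sema3b and Sema6c. Sema3a, with no read in wtPC12, was not tested. In RNA from a whole culture, fewer cells that make a transcript and less of it per cell cannot be told apart.

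The share that fell was 24.4% of the tested guidance genes, where 5.46% of all tested genes fell, and the share that rose was 8.89%, where 4.84% of all tested genes rose. With a looser rule, an adjusted p under 0.05 by edgeR and no minimum log2 FC, 19 guidance genes were lower and 11 higher in hrPC12, against 16.3% and 16.1% of all tested genes. Both wtPC12 libraries lay above both hrPC12 libraries for 23 of the 47 genes and below them for 18, and the clones overlapped for the other 6, while the libraries of the clones did not overlap for 73.5% of all tested genes. The median log2 FC was -0.66 over the 45 tested guidance genes and 0.06 over all tested genes. In absolute size, the median log2 FC was 1.85 in the guidance genes and 0.74 in all tested genes.

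By these calls receptors and ligands did not divide in the same way. Among the 17 tested receptors 6 fell and 1 rose, and among the 28 tested ligands 5 fell and 3 rose. This difference between the classes was not tested. With the looser rule 7 receptors were lower and 3 higher, and 12 ligands were lower and 8 higher. Of all tested genes, 16.3% were lower and 16.1% higher by that rule. The median log2 FC was -0.54 in the receptors and -0.74 in the ligands. The call of every one of the 15 genes was lost without wtPC12 replicate 2, when no gene of the whole table was called. The 15 genes kept their direction there, with edgeR adjusted p values from 0.0134 to 0.053. With glmTreat, edgeR's test against the minimum log2 FC itself, 5 of the 11 still fell (Unc5a, Ephb2, Nrp2, Sema5a and Sema3g) and all 4 that rose did so again, where 2.57% of all tested genes fell and 2.34% rose.

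**Figure D1:**
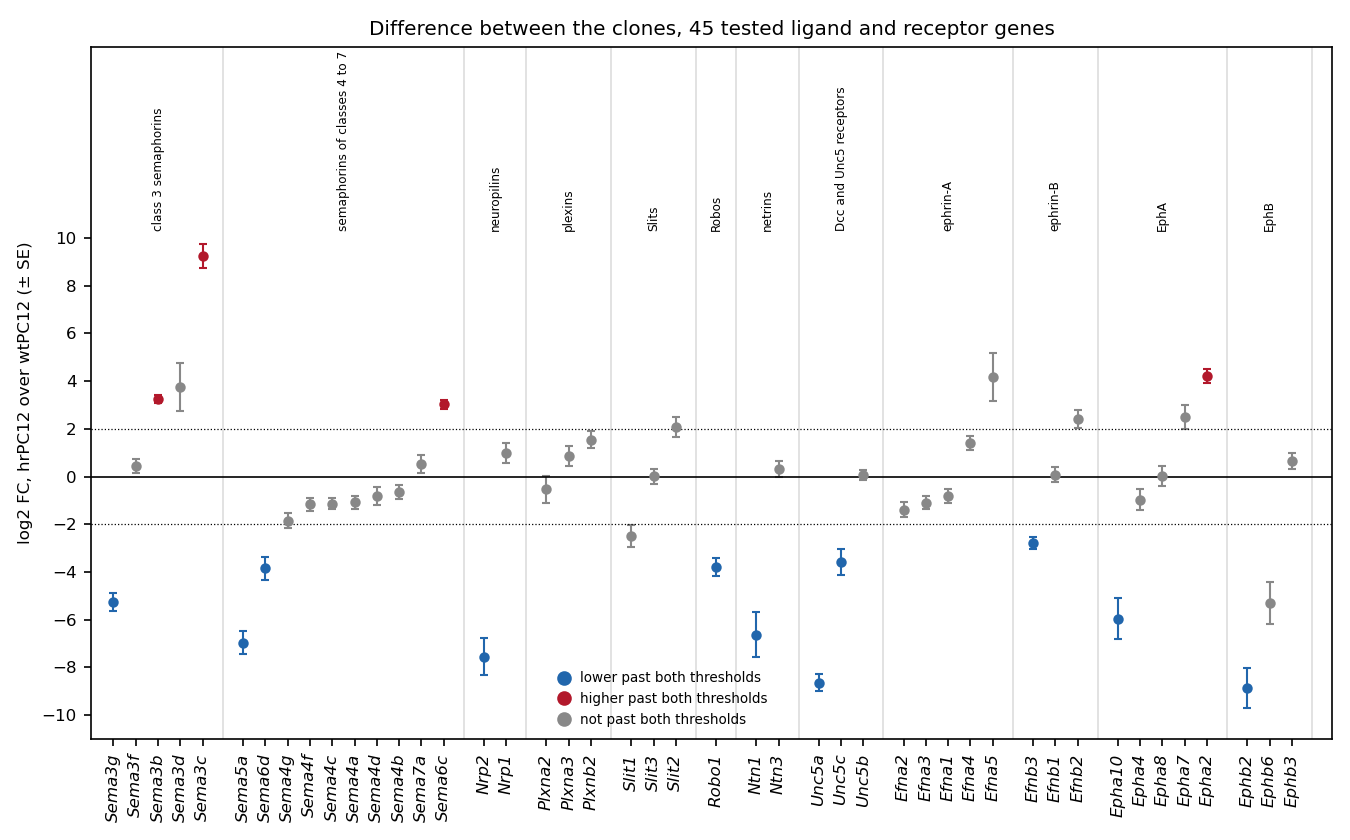
Differences between the clones for the 45 tested ligand and receptor genes, grouped by class. The vertical axis is the log2 FC of hrPC12 over wtPC12, bars are 1 SE from edgeR, dotted lines mark the minimum log2 FC of 2, and colour marks the 11 genes that fell and the 4 that rose, from Ephb2 at -8.86 to Sema3c at 9.26.

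Promoter sequences are shown for 4 genes with large differences between the clones, a ligand and a receptor in each direction, so that their make-up can be set beside the values that follow. Each is the 300 bases from 250 before to 50 after a transcription start in RefSeq, on build GRCr8, printed 5′ to 3′ on the gene's strand. Capitals mark the only match, in these 4 windows, to the left arm (CAGCACC) or the right arm (GGACAG, here as its reverse complement) of RE-1, the element that REST binds.
Sema3g, chr16:6419775-6420074, plus strand: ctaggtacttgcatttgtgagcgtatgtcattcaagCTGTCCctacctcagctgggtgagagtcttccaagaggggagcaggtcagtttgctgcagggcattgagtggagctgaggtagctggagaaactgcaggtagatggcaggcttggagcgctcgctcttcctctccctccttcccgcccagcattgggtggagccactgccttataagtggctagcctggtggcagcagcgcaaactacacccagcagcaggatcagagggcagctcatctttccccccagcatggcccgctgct
Ephb2, chr5:154360375-154360674, minus strand: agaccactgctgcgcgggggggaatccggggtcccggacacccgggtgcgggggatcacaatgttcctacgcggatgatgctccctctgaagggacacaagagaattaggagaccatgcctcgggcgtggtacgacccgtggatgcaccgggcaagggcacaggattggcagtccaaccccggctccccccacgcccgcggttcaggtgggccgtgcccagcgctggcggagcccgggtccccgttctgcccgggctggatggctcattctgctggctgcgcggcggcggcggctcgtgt
Sema3c, chr4:18699578-18699877, minus strand: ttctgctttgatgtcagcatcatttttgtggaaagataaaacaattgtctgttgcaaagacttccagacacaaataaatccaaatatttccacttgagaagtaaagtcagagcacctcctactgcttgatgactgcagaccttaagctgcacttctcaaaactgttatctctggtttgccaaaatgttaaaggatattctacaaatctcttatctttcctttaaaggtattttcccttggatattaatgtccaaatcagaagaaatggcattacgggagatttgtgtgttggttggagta
Epha2, chr5:158888379-158888678, plus strand: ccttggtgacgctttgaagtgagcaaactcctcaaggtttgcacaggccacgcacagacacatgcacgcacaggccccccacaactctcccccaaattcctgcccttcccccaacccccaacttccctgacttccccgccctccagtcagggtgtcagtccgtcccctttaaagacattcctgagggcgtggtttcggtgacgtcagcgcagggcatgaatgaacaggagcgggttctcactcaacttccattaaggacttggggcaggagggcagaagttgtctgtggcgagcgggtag

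The 4 windows differ in composition. That of Ephb2, which fell, holds 29 CpG dinucleotides and is 69.3% G or C, and that of Sema3c, which rose, holds 1 and is 36.3% G or C. The windows of Sema3g and Epha2 lie between these, with 6 and 12 CpG. The Sema3c window lies inside the gene's span in the RefSeq table and not at its outermost start, so it may belong to a shorter transcript, and which start the PC12 clones use was not measured. Over the 47 genes, 35 had a window, 36 windows in all since Robo1 has 2, with a median of 19.5 CpG against 7 in all 33469 windows of the table.

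The arms of RE-1 were searched as exact letters on both strands. CAGCACC was in 3 of the 36 windows of guidance genes and in 6.78% of all windows, and GGACAG was in 14 of them and in 21.7% of all windows. Both arms in the element's usual order with 2 bases between them were in none of the 36 windows and in 0.0299% of all. Among the 7 fallen genes with a window, Epha10 had CAGCACC, and Nrp2, Sema3g and Unc5a had GGACAG. Sema6c, which rose, had both motifs, not joined. A match of letters is no evidence of binding, and a missing match says only that these letters are not in these 300 bases.

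The secreted class 3 semaphorins, which act through a neuropilin bound to a plexin, mostly had more counts in hrPC12, though not all passed the test. Of the 6 with enough reads, 5 had both hrPC12 libraries above both wtPC12 libraries and 1, Sema3g, the reverse. Over all tested genes 73.5% separated in one direction or the other. Of the 5 tested class 3 genes 2 rose and 1 fell, where 4.84% and 5.46% of all tested genes did. Sema3c, a cue of neural crest and vascular development, stood at 20.9 and 14.4 in wtPC12 and at 14098 and 7521 in hrPC12. The libraries were far apart, and the gene rose with a log2 FC of 9.26 (SE 0.51, edgeR adjusted p = 0.00055). The gap between the 2 hrPC12 libraries is shared by the genes around Sema3c, as described further on.

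Sema3b, a repellent cue that is also studied as a tumour suppressor, was measured with little spread at 457, 444, 4205 and 4362. It rose 9.51-fold (log2 FC 3.25, SE 0.18, edgeR adjusted p = 0.000538). Sema3a, which makes growth cones collapse, had no read in either wtPC12 library and 108 and 45 reads in hrPC12, or 91.4 and 45.5 normalized counts. It was at least 20.8-fold higher in hrPC12, against the limit of 3 reads in each wtPC12 library, and at least 13.8-fold without hrPC12 replicate 1. The filter left Sema3a out, and in a fit of every gene with a read its edgeR adjusted p was 0.000833.

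Sema3g, a class 3 semaphorin known from blood vessels, went the other way, at 261 and 314 in wtPC12 and 6.77 and 8.09 in hrPC12. It fell by 5.26 on the log2 scale (SE 0.38, edgeR adjusted p = 0.00105), and its hrPC12 values were more than the limit of detection in both libraries. Sema3d was near that limit in wtPC12, with 0 and 2.06 against 20.3 and 12.1, a ratio of 15.2 with a counting interval from 3.91 to 130 (95%, counting error only), and an edgeR adjusted p of 0.0383. Sema3f, which signals through neuropilin-2, was at 144, 168, 203 and 219 and did not pass the test (edgeR adjusted p = 0.276). Sema3e had 10 reads in all, 7 and 3 of them in hrPC12.

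Among the semaphorins anchored in the membrane, none of the 6 class 4 genes passed both thresholds, while Sema5a and Sema6d fell and Sema6c rose. By the same thresholds 5.46% of all tested genes fell and 4.84% rose. The class 4 genes all had both wtPC12 libraries above both hrPC12 libraries, a separation that most genes of the table show in one direction or the other. With DESeq2, which called 6.62% of all tested genes lower and 6.4% higher, none of the 6 was called either, and 4 were lower at an unadjusted p under 0.05 by edgeR, where 22.7% of all tested genes were lower and 23.6% higher. Sema4g had the largest difference of them, from 411 and 386 to 87.2 and 135 (log2 FC -1.85, SE 0.33, edgeR adjusted p = 0.0145). Sema4c was at 895, 993, 399 and 458, Sema4f at 504, 498, 200 and 246, and Sema4a at 449, 354, 179 and 201, each with an edgeR adjusted p between 0.01 and 0.05. Sema4b (369, 519, 284 and 277) and Sema4d, also a regulator of B cells (463, 421, 333 and 171), had edgeR adjusted p values of 0.133 and 0.162.

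Sema5a, a transmembrane semaphorin with thrombospondin repeats that can attract or repel, stood at 650 and 738 in wtPC12 and 7.62 and 3.04 in hrPC12. The second hrPC12 value is at the limit of detection, and the gene fell by 6.96 on the log2 scale (SE 0.48, edgeR adjusted p = 0.000929), with a log2 FC of -7.78 without hrPC12 replicate 1. Sema5b had no read in wtPC12 and 11.01 and 9.11 normalized counts in hrPC12. That makes it at least 3.06-fold higher, and with every gene fitted its edgeR adjusted p was 0.0182.

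The 2 class 6 semaphorins, ligands of A plexins that can also serve as receptors themselves, moved in opposite directions. Sema6d was at 399 and 546 in wtPC12 and 44.9 and 20.2 in hrPC12 and fell by 3.84 (SE 0.49, edgeR adjusted p = 0.00533), with a log2 FC of -4.54 without hrPC12 replicate 1. Sema6c was at 469 and 529 in wtPC12 and at 3971 and 4190 in hrPC12. It rose 8.17-fold (log2 FC 3.03, SE 0.18, edgeR adjusted p = 0.000709), and its libraries were close together within each clone. Sema7a, which is linked to the membrane by a lipid and binds integrins, was at 47.7, 74.2, 83.0 and 94.1 and did not pass the test (edgeR adjusted p = 0.314).

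The receptors of the secreted semaphorins separated the 2 neuropilins. Nrp2 fell to the limit of detection, from 290 and 799 in wtPC12 to 2.54 and 3.04 in hrPC12, which are 3 reads in each library. Its ratio of wtPC12 to hrPC12 was 203, with a counting interval from 92.7 to 553, and its log2 FC was -7.56 (SE 0.77, edgeR adjusted p = 0.00267). Among tested guidance genes with a read in every library, Nrp2 had the widest gap between the wtPC12 libraries, and the fitted difference moved to -6.65 when wtPC12 replicate 2 was left out and to -8.15 when replicate 1 was. Nrp1, the usual partner of Sema3a and also a co-receptor of VEGF, was at 300, 689, 977 and 969. Both hrPC12 libraries lay above both wtPC12 libraries, with a log2 FC of 0.98 (SE 0.42) that did not pass the test (edgeR adjusted p = 0.134). It too depended on the wtPC12 libraries, with a log2 FC of 1.697 without replicate 2 and 0.47 without replicate 1.

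Plexins are the signalling subunits, and of the 3 with enough reads none passed both thresholds with edgeR or DESeq2. At an unadjusted p under 0.05 by edgeR 1 was higher, where 23.6% of all tested genes were. Plxnb2, a receptor of class 4 semaphorins, was at 3511, 4773, 15565 and 8525, with the clones apart (log2 FC 1.54, SE 0.35, edgeR adjusted p = 0.0279). Plxna3 was at 500, 840, 1608 and 852, and the lower hrPC12 value lay close to the higher wtPC12 value (edgeR adjusted p = 0.161). Plxna2 overlapped between the clones at 46.5, 83.4, 61.8 and 27.3. For each of these plexins hrPC12 replicate 1 was well above replicate 2, and scaling that library in the stretches of chromosome described further on took the log2 FC of Plxnb2 to 1.07, that of Plxna3 to 0.40 and that of Plxna2 from -0.54 to -1.05.

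Of the 3 netrin receptors with enough reads, 2 fell and 1 was at a like level in both clones. Over all tested genes, 5.46% fell. Unc5a, a repulsive netrin receptor that can also trigger cell death when it has no ligand, fell from 1445 and 1960 in wtPC12 to 4.23 and 4.05 in hrPC12. That is 399-fold (log2 FC -8.64, SE 0.37, edgeR adjusted p = 0.000312), with replicates of each clone close together. The hrPC12 values are 5 and 4 reads, just above the limit of detection, so the size of the fold rests on few reads. Unc5c fell from 587 and 1043 to 94.0 and 40.5 (log2 FC -3.59, SE 0.55, edgeR adjusted p = 0.00918), and its log2 FC was -4.33 without hrPC12 replicate 1. Its clones did not overlap either, but hrPC12 kept a level well above the limit of detection.

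Unc5b, the member of the same family known from blood vessels, was at 5756, 7548, 6700 and 7165. The clones overlapped, with a log2 FC of 0.06 (SE 0.20, edgeR adjusted p = 0.831). Dcc, the attractive receptor, had 9 reads in all, 7 and 2 of them in hrPC12, and Unc5d had 1.

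Of the ligands of these receptors, Ntn1, which encodes netrin-1, fell to the limit of detection. It stood at 73.3 and 135 in wtPC12 and had 0 and 2 reads in hrPC12, a ratio of 115 with a counting interval from 31.4 to 956 (log2 FC -6.62, SE 0.95, edgeR adjusted p = 0.00695). Without hrPC12 replicate 1 the log2 FC was -5.60. Ntn3, a lesser-known netrin, was at 240, 389, 403 and 374, where the clones overlapped and the test was not passed (edgeR adjusted p = 0.494). Over the netrins and their receptors, 3 of the 5 tested genes fell, where 5.46% of all tested genes fell. None rose with edgeR or DESeq2. None was higher at an unadjusted p under 0.05 by edgeR, where 23.6% of all tested genes were.

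The 3 Slit genes, which encode large secreted repellents, differed from one another while their receptor Robo1 fell. Slit3 stood at 4199, 7590, 5838 and 5975, with both hrPC12 values between the wtPC12 values and a log2 FC of 0.00 (SE 0.31, edgeR adjusted p = 0.996). Slit2, known for its part in midline crossing, was at 159 and 238 in wtPC12 and 1110 and 579 in hrPC12 (log2 FC 2.09, SE 0.42, edgeR adjusted p = 0.0204). Slit1 was at 47.7 and 77.3 in wtPC12 and 11.01 and 11.13 in hrPC12 (log2 FC -2.49, SE 0.47, edgeR adjusted p = 0.0165).

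For Slit1 and Slit2 the clones did not overlap and neither gene was called by edgeR, while DESeq2 called both, with adjusted p values of 0.00471 and 1.11e-05. Slit2 lies in one of the stretches of chromosome described further on, and its log2 FC was under the minimum of 2 with hrPC12 replicate 1 scaled there (1.61), without that library (1.54) and without wtPC12 replicate 1 (1.79). Robo1, the main Slit receptor of many axons, stood at 3137 and 6090 in wtPC12 and at 306.5 and 356 in hrPC12. It fell 13.9-fold (log2 FC -3.80, SE 0.38, edgeR adjusted p = 0.00264) and remained well detected. The other Robo genes had 8 reads (Robo2), 3 reads (Robo3) and no read (Robo4) over the 4 libraries, so at this depth Robo1 was the only Robo gene with enough reads in either clone.

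**Figure D2:**
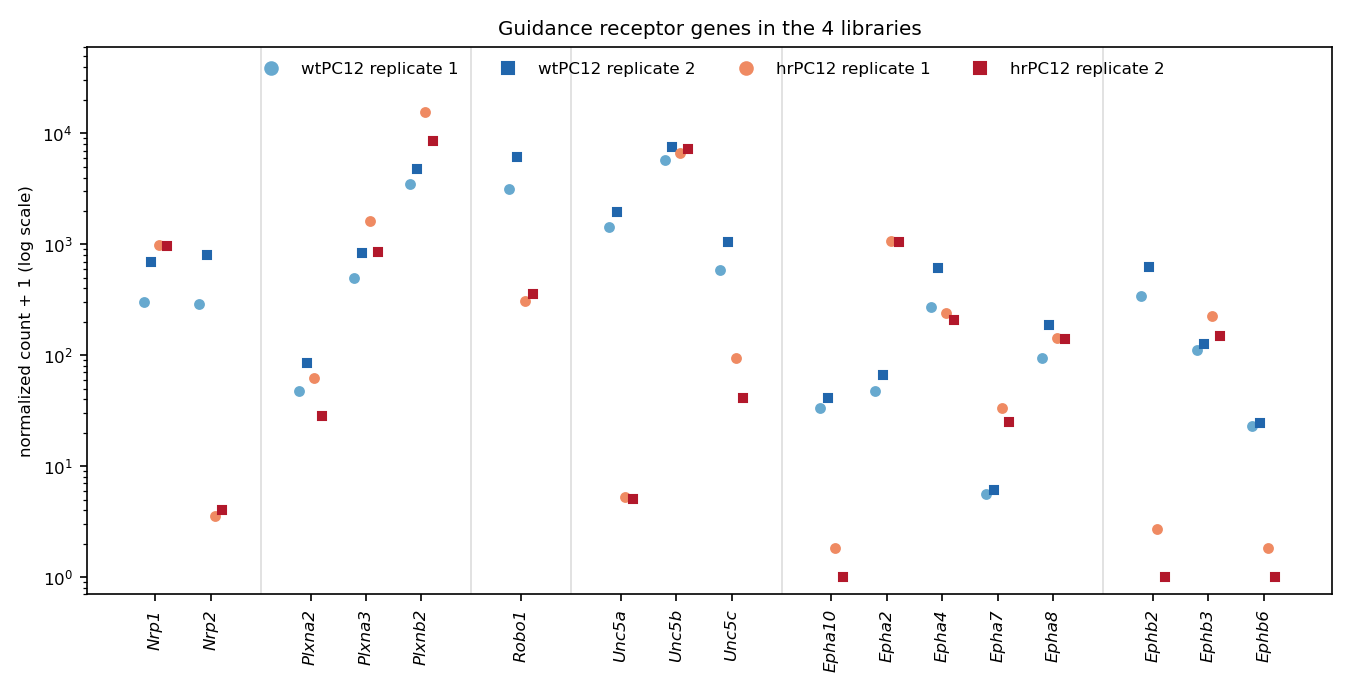
Normalized counts of the receptor genes in each library, on a log axis, with wtPC12 and hrPC12 side by side and every point 1 library. Unc5a, Ephb2, Nrp2 and Epha10 sit at or near the bottom of the scale in both hrPC12 libraries, while Unc5b lies between 5756 and 7548 in all 4.

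The A ephrins, held in the membrane by a lipid anchor, all differed between the clones without overlap, as did 73.5% of all tested genes. At an unadjusted p under 0.05 by edgeR 3 were lower and 2 higher, where 22.7% and 23.6% of all tested genes were. None of the 5 passed both thresholds with edgeR or DESeq2. Efna2 was at 201, 250, 83.8 and 89.0 (log2 FC -1.38, SE 0.30, edgeR adjusted p = 0.0249) and Efna3 at 389, 517, 198 and 225 (log2 FC -1.10, SE 0.28, edgeR adjusted p = 0.0389). Efna4 went the other way, at 68.6, 73.1, 175 and 199 (log2 FC 1.40, SE 0.30, edgeR adjusted p = 0.0242). Efna1, a ligand of EphA2, was at 1533, 958, 626 and 791 (edgeR adjusted p = 0.0981). Efna5, a repellent in the map from eye to brain, had 0 and 1 read in wtPC12 and 12.7 and 11.1 normalized counts in hrPC12, a ratio of 21.9 with a counting interval from 3.60 to 899 and an edgeR adjusted p of 0.0267.

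Efna1, Efna3 and Efna4 lie next to one another on chromosome 2, with no other protein-coding gene between them in the RefSeq table of build GRCr8. Their differences were not of 1 direction, with Efna1 and Efna3 lower and Efna4 higher in both hrPC12 libraries. The class 3 semaphorins Sema3c, Sema3e, Sema3a and Sema3d follow each other on chromosome 4, with 4, 12 and 0 protein-coding genes between neighbours. There all 4 had more normalized counts in each hrPC12 library than in either wtPC12 library, at very different levels, Sema3e with few reads.

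The B ephrins span the membrane and can signal back into their own cell, and the 3 of them showed a fall, a higher level and overlap. Efnb3, a midline repellent, was at 521 and 524 in wtPC12 and at 77.9 and 73.9 in hrPC12. It fell 6.88-fold (log2 FC -2.78, SE 0.27, edgeR adjusted p = 0.00228) with close replicates. Efnb2, the ephrin of arteries, was at 59.3 and 111 in wtPC12 and 459.7 and 454 in hrPC12, a log2 FC of 2.42 (SE 0.39) whose edgeR adjusted p of 0.0108 just missed the threshold. It was called with DESeq2 (adjusted p = 2.93e-07). Efnb1 overlapped between the clones at 385, 384, 494 and 314.

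**Figure D3:**
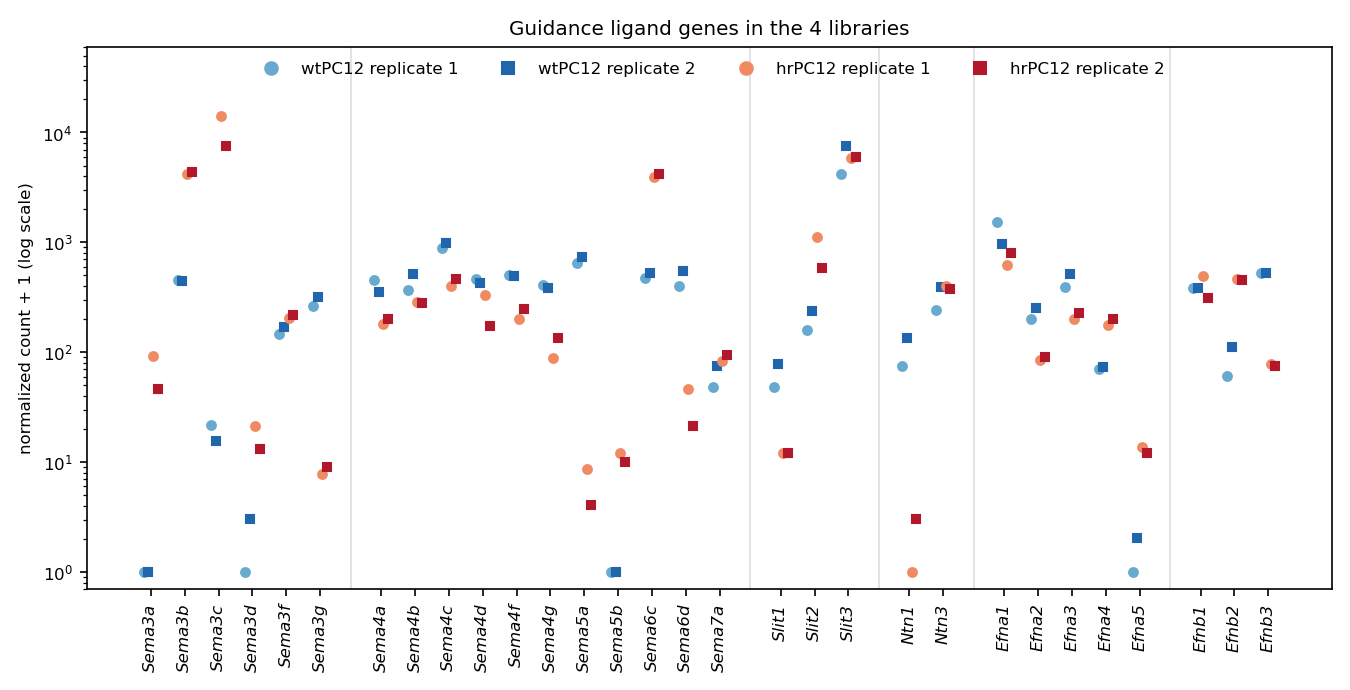
Normalized counts of the ligand genes in each library, on a log axis, every point 1 library. Sema3c moves from 20.9 and 14.4 in wtPC12 to 14098 and 7521 in hrPC12, Ntn1 falls to the limit of detection, and Slit3 overlaps between the clones.

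The Eph receptors form the largest family of receptor tyrosine kinases. They had 8 tested genes here, of which Ephb2 and Epha10 fell and Epha2 rose, where 5.46% of all tested genes fell and 4.84% rose. Ephb2, a receptor of B ephrins at axons and synapses, stood at 343 and 624 in wtPC12 and had 2 reads and no read in hrPC12. The ratio was 534 with a counting interval from 147 to 4416 (log2 FC -8.86, SE 0.82, edgeR adjusted p = 0.00192), and the log2 FC was -8.11 without hrPC12 replicate 2. Epha2, a receptor of epithelia and many tumours, was at 46.5 and 65.9 in wtPC12 and at 1062 and 1044 in hrPC12. It rose 18.7-fold (log2 FC 4.22, SE 0.30, edgeR adjusted p = 0.001), the only receptor of the 17 tested to rise.

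Epha10 and Ephb6, which lack an active kinase domain, had 1 read each in hrPC12 replicate 1 and none in replicate 2. Epha10 stood at 32.6 and 40.2 in wtPC12, a ratio of 79.4 with a counting interval from 13.8 to 3183. It fell by 5.97 on the log2 scale (SE 0.86, edgeR adjusted p = 0.00648), with a log2 FC of -5.28 without hrPC12 replicate 2, and without wtPC12 replicate 1 its edgeR adjusted p was 0.0157. Ephb6 was at 22.1 and 23.7 in wtPC12, a ratio of 49.8 with a counting interval from 8.46 to 2012. Its log2 FC was -5.30 (SE 0.89), or -4.61 without hrPC12 replicate 2, and its edgeR adjusted p of 0.0102 missed the threshold, whereas it was called under DESeq2 (adjusted p = 0.0094).

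The remaining Eph receptors differed less. Epha4, a broad receptor of both ephrin classes, was at 272, 612, 240 and 208 (edgeR adjusted p = 0.146), with its wtPC12 libraries more than 2-fold apart and a log2 FC that moved from -0.98 to -0.28 without wtPC12 replicate 2. Epha7 had few counts, 4.65 and 5.15 in wtPC12 against 32.2 and 24.3 in hrPC12 (log2 FC 2.50, SE 0.51, edgeR adjusted p = 0.0202). Ephb3 was at 112, 127, 225 and 148 (edgeR adjusted p = 0.199) and Epha8 overlapped at 94.2, 185, 142 and 141. Epha8 lies near Ephb2 on chromosome 5, with 3 protein-coding genes between them in the RefSeq table. Epha1 had 18 reads, Ephb1 had 1, and Epha3 and Epha5 had none.

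The remaining gene under 20 reads was Plxnb3, with no read. Of 69 symbols of the chosen kind in the RefSeq table, 11 are not among the gene names used here, Plxna1, Plxna4, Plxnb1, Plxnc1, Plxnd1, Sema6a, Sema6b, Epha6, Ephb4, Ntn4 and Ntn5. These were not analysed here.

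The 2 libraries of wtPC12 were not alike for guidance genes. Of the 45 tested genes 37 were higher in wtPC12 replicate 2 than in replicate 1, with a median log2 ratio of 0.44, whereas 47.1% of all tested genes were, with a median of -0.04. Of the guidance genes with a read in every library, Nrp2, Nrp1, Epha4, Epha8, Robo1 and Efnb2 had the largest gaps, all with more counts in replicate 2. Rest too was higher in wtPC12 replicate 2. What sets these libraries apart was not tested. In hrPC12, 26 of the 45 were higher in replicate 1, with a median log2 ratio of 0.02, where 49.3% of all genes were.

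The 10 genes Efnb1, Ephb3, Plxna2, Plxna3, Plxnb2, Sema3c, Sema3d, Sema4d, Slit2 and Unc5c guidance genes lie in stretches of chromosome in which neighbouring genes were together higher in hrPC12 replicate 1 than in replicate 2. By gene order in the GRCr8 table there were 36 such runs, with 1080 of 8397 placed genes (12.9%). Around these 10 genes the local median log2 ratio of replicate 1 to replicate 2 was 0.65 to 0.91, and the runs held 19 to 60 genes. Guidance genes that were not tested or had under 10 reads in an hrPC12 library were not placed, so the 12.9% compares only with those placed. With enough reads over the 4 libraries but not placed were Epha10, Ephb2, Ephb6, Nrp2, Ntn1, Sema3a, Sema3g, Sema5a, Sema5b and Unc5a. Sema3a and Sema3e, which was not placed either, lie between Sema3c and Sema3d. Their log2 ratios of replicate 1 to replicate 2 were 1.01 and 0.97. Unc5c and Sema3c, in runs, kept their calls when hrPC12 replicate 1 was scaled down in the runs by their median ratio (log2 FC -4.12 and 8.74), and the counts of 11 fallen and 4 risen genes were as before. Efnb1 changed sign, from 0.07 to -0.28, and passed the test in neither case. Whether the runs come from the cells or from the libraries was not tested.

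**Figure D4:**
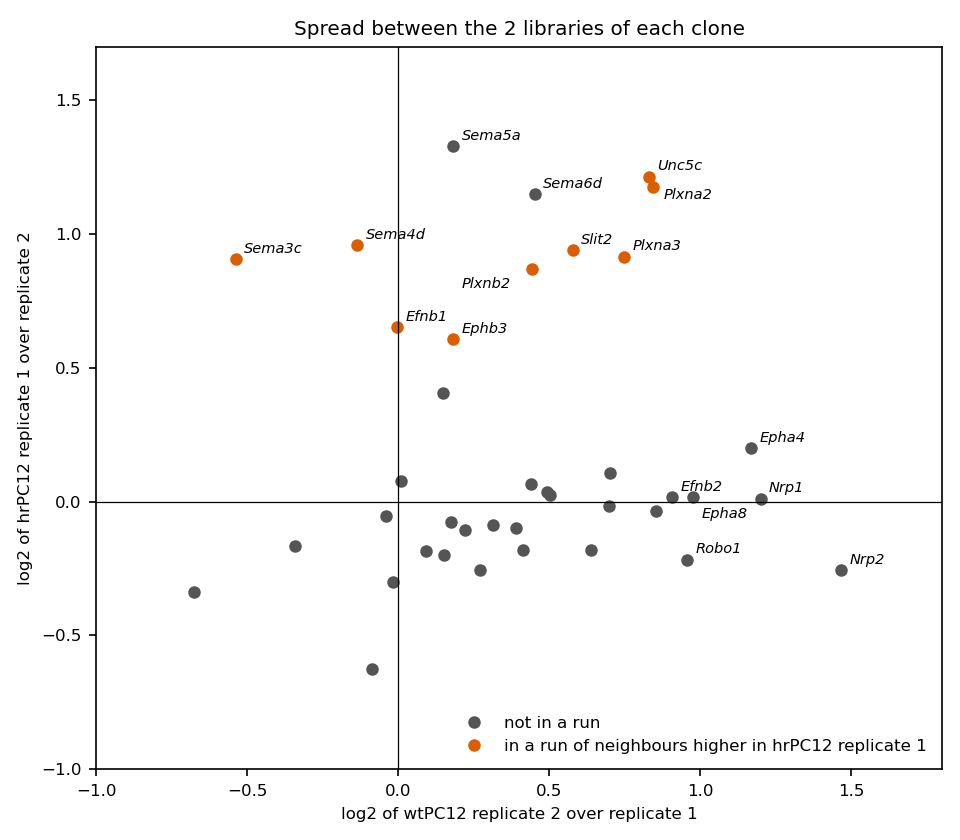
Spread between the 2 libraries of each clone for the 39 tested genes with a read in every library, as log2 ratios of wtPC12 replicate 2 over replicate 1 (horizontal) and of hrPC12 replicate 1 over replicate 2 (vertical). Orange points are genes in runs of neighbours higher in hrPC12 replicate 1, which lie high on the plot, and most points lie to the right of 0.

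Genes that work with these ligands and receptors were taken from 3 lists of general knowledge. The proteins that carry the signal inside the cell, such as collapsin response mediators, regulators of small GTPases, kinases and adaptors, were found for 47 of 54 symbols and included 46 tested genes, of which 6 rose and none fell, where 4.84% of all tested genes rose and 5.46% fell. With DESeq2 10 rose and 2 fell, where 6.4% of all tested genes rose and 6.62% fell. With glmTreat 3 rose, where 2.34% of all tested genes did. At an unadjusted p under 0.05 by edgeR 17 were higher and 10 lower, against 23.6% and 22.7% of all tested genes. An adjusted p under 0.05 by edgeR with no minimum log2 FC was reached by 6 lower and 14 higher genes. By that rule 16.3% of all tested genes were lower and 16.1% higher. The median log2 FC of the list was 0.34. Those that rose are Ablim3 (log2 FC 8.42), which binds actin, the kinases Pak1 (6.16) and Pak3, which Rac and Cdc42 switch on, Chn2 and Vav3 (4.85), a GTPase-activating and an exchange factor for Rac, and Rgs3 (2.27), a regulator of G proteins that can bind B ephrins, with edgeR adjusted p values from 0.000427 to 0.00942. Chn2 had 0 and 1 read in wtPC12 and 415 and 387 normalized counts in hrPC12, a ratio of 736 with a counting interval from 131.7 to 29091. Pak3 had 0 and 2 reads in wtPC12 and a ratio of 133 with an interval from 36.5 to 1102.

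The list of other guidance cues and co-receptors, 23 of 28 symbols, held 13 tested genes, of which 4 fell and 3 rose. Of all tested genes 5.46% fell and 4.84% rose. Lingo1 and Rtn4r, parts of the receptor of myelin inhibitors, fell to the limit of detection. Lingo1 was at 302 and 322 in wtPC12 and had 0 and 3 reads in hrPC12, a ratio of 226 with a counting interval from 77.1 to 1101. Rtn4r was at 82.6 and 96.8 in wtPC12 with 1 read in each hrPC12 library, a ratio of 97.8 with an interval from 26.6 to 814. The adhesion molecules L1cam (log2 FC -4.04) and Cntn2 (-2.13) also fell, and the edgeR adjusted p values of the 4 genes ran from 0.00156 to 0.00918. Flrt3, which binds Unc5 receptors, rose by a log2 FC of 7.88 and Nell2, a ligand of Robo3, by 5.16. Rgma, a ligand of neogenin, had 1 read and no read in wtPC12 and 58.4 and 49.6 normalized counts in hrPC12, a ratio of 99.6 with an interval from 17.5 to 3965, and rose too, the 3 with edgeR adjusted p values from 0.000312 to 0.00543. Flrt2 and Met, the receptor of hepatocyte growth factor, had no read in wtPC12 and were not tested. In hrPC12 Flrt2 was at 41.5 and 36.4, and Met was at 265 and 250.

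The list of proteases that cut Eph proteins, ephrins or Dcc at the membrane held 6 tested genes, found for 7 of 9 symbols, and none fell or rose with edgeR or DESeq2. At an unadjusted p under 0.05 by edgeR, 1 was higher and none lower, against 23.6% and 22.7% of all tested genes. Adam17 was at 870, 947, 3796 and 2076 (log2 FC 1.69, SE 0.33, edgeR adjusted p = 0.0182). Adam10, which cuts ephrins on contact with their receptors, was at 1033, 1979, 1550 and 1598, overlapping between the clones.

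**Figure D5:**
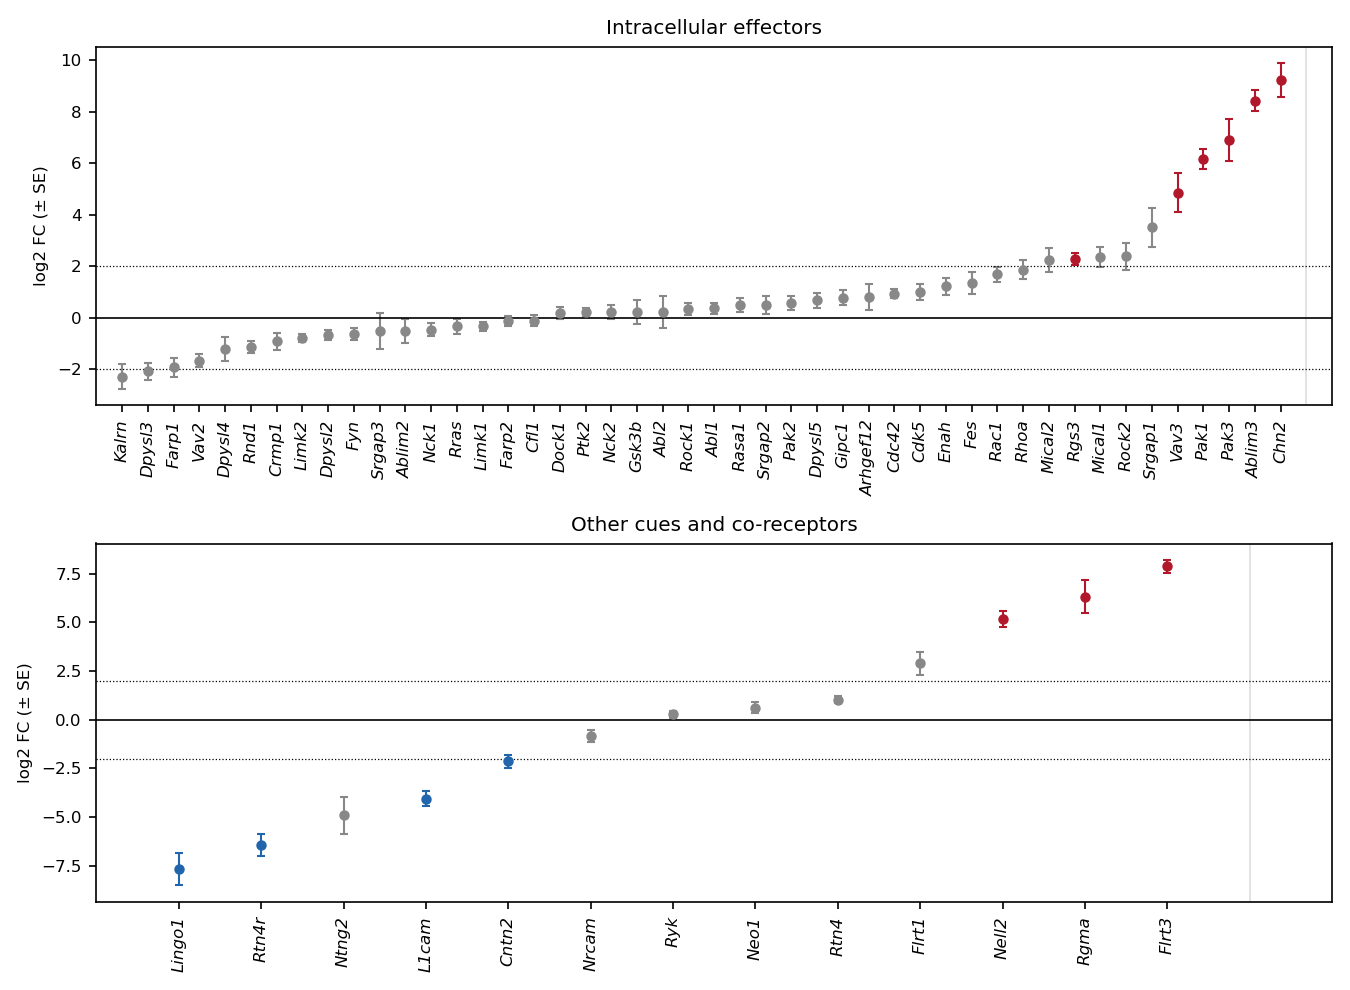
Differences between the clones for tested genes of the lists of intracellular effectors (top) and of other cues and co-receptors (bottom), as log2 FC of hrPC12 over wtPC12 with 1 SE from edgeR. Red points rose, blue points fell and grey points did not pass both thresholds, and the signalling genes at the top reach from Kalrn at -2.29 to Chn2 at 9.23.

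Markers of some cell types differed between the clones, and their part in the results was not tested. No marker of Schwann and glial cells or of white blood cells fell or rose. The summed level of the 9 markers of chromaffin and sympathoadrenal cells found in the files was 955351 and 816734 normalized counts in wtPC12 and 47390 and 51442 in hrPC12. Chgb held most of the wtPC12 sum. Of the 9, 5 fell, while Ddc, an enzyme of catecholamine synthesis, was at 24196, 20841, 26281 and 27995. Fibroblast markers, 8 of 8 found, summed to 18101 and 16317 in wtPC12 and 93291 and 97841 in hrPC12, and 4 of them rose, Col1a1, Col1a2, Col3a1 and Pdgfrb. These sums rest on single genes, with Col3a1 at 83801 and 88143 in hrPC12 and Thy1 at 17929 and 16186 in wtPC12. Thy1 (log2 FC -0.99, edgeR adjusted p = 0.0137) and Dcn (-3.10, edgeR adjusted p = 0.0182) had both wtPC12 libraries above both hrPC12 libraries. Schwann cell markers summed to 229 to 310 over the 4 libraries, with Sox10 at 0. White blood cell markers summed to 33.0 to 98.1, with 1 read of Ptprc in all, and endothelial markers to 95.4 and 115 in wtPC12 against 627 and 619 in hrPC12, where Vwf rose.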

How the data were processed

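RNA of 2 PC12 clones, 2 libraries each, was sequenced after TruSeq preparation. The authors aligned the reads to rat build rn4 (RGSC3.4) and deposited raw counts of reads per gene, 1 file a library. TopHat2 2.0.4, HTSeq 0.5.3 and DESeq 1.9.12 are named in the submitters' processing notes. The setting for strand is not given in the sources used here, so reads of overlapping genes may be shared. The deposited table of the authors' DESeq comparison (mean signal per clone, ratio, p-values) was not used, and 0 columns of values per sample were left unused. Summary lines for unassigned reads were removed, and reads on genes were 37.9 to 41.3% of those accounted for.

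Members and lists were chosen with earlier results of these data known. In R 4.3.3, counts were scaled with TMM factors, filtered (reads in each clone, and 5 normalized counts or more on average) and compared with edgeR 4.0.16 (glmQLFit and glmQLFTest, legacy option on, prior count 0.125), with Benjamini-Hochberg adjustment over all 13726 tested genes. The thresholds, an adjusted p of 0.01 and a log2 FC of 2, are those of the study. edgeR replaced DESeq as the count test, and DESeq2 1.42.0 was an alternative. A gene with no read in a clone is given a bound against 3 reads in each library of that clone, and one with reads there but no more than 3 in either library a ratio with a 95% interval for counting error only. With 2 libraries against 2, an exact permutation test of a single gene cannot go below p = 0.333, so none was used. Genes named are all members, and of the lists those that passed both thresholds, those with reads in 1 clone and a few others chosen after their values were seen. Alternatives were other scalings, filters, tests and thresholds and leaving out each library. Promoter windows came from a RefSeq table of build GRCr8, matched by symbol. Gene order came from the same build, none of whose gene coordinates are used with the counts. A run is a stretch of at least 5 genes with at least 10 reads in both hrPC12 libraries whose median log2 ratio over 7 neighbours was above 0.4. Scripts were tested on simulated counts.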

Additional observations from a re-analysis of the deposited data

How the results depend on the processing

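Fallen and risen guidance genes numbered 11 and 4. Under glmTreat 5 fell, and Efnb3, Epha10, Ntn1, Robo1, Sema6d and Unc5c were lost. With an adjusted p of 0.05, 9 rose, and with every gene that had a read, 7 rose. Over all genes, 749 fell and 665 rose, and 353 and 321 did so under glmTreat, while 1088 rose at 0.05 and 1127 with every gene fitted. Leaving out 1 library gave 0 to 859 fallen and 0 to 962 risen genes in the whole table, and 0 to 10 and 0 to 6 guidance genes. The zeros are without wtPC12 replicate 2, where 6798 genes and 32 of 43 guidance genes had an unadjusted p under 0.05 by edgeR. The median log2 FC of guidance genes, -0.66, was -0.78 to -0.39 with 1 library left out and -0.80 to -0.61 otherwise.

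Genes with a log2 FC near 0 changed sign. Efnb1 was at -0.28 with runs scaled. Epha8 was at -0.018 and -0.023 and Slit3 at -0.030 and -0.035 under DESeq2 and edgeR's RLE factors. With 1 library left out the log2 FC ranged from -0.29 to 0.31 (Efnb1), -0.42 to 0.59 (Epha8), -0.034 to 0.70 (Ntn3), -0.39 to 0.49 (Slit3) and -0.15 to 0.27 (Unc5b). All 15 called genes kept their sign wherever they were tested. Without hrPC12 replicate 1, 13 of them were tested, and without replicate 2, 14. Ephb6 was called under 7 alternatives. The fitted log2 FC of genes with few reads depends on the prior count. With a prior count of 2 it was -7.39 for Ephb2, -6.84 for Nrp2, -5.17 for Ntn1 and -3.97 for Epha10. No paired analysis was possible because the labels share at most 1 replicate mark between the clones, and replicates 1 and 2 are numbers given here in accession order that only name a library. Differences too small for 2 libraries a clone, or under 3 reads, were not detectable at this depth.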
